A study of Mus musculus with 12 samples.

Results

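The 39 genes described here encode proteins of homologous recombination, of the Fanconi anemia pathway and of the DNA damage checkpoint. They were chosen by gene symbol, and all 39 were found among the 24770 symbols of the table. Of these, 5 belong to the BRCA complex and its partners (Brca1, Brca2, Bard1, Palb2, Brip1) and 8 are strand exchange factors (Rad51b, Rad51c, Rad51d, Xrcc2, Xrcc3, Rad51ap1, Rad54l, Rad54b). Another 6 act in end resection and unwinding (Mre11a, Rad50, Nbn, Rbbp8, Exo1, Blm), and 9 form the Fanconi core complex with its ubiquitin-conjugating enzyme (Fanca, Fancb, Fancc, Fance, Fancf, Fancg, Fancl, Fancm, Ube2t). The Fanconi substrate pair adds 2 (Fancd2, Fanci), the checkpoint kinases and their partners 6 (Atm, Atr, Atrip, Chek1, Chek2, Topbp1), and signalling on chromatin beside breaks 3 (Mdc1, Rnf8, Rnf168).

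RNA was measured in the mouse cell line GC-2, labelled as wild type and as type B spermatogonia, in 12 libraries that form 4 groups of 3. The groups were MLN4924 (1 µM) in hypoxia (1% O2), MLN4924 in normoxia, DMSO in hypoxia and DMSO in normoxia, each kept for 24 h, so the solvent control carries no inhibitor and no other agent is named. MLN4924 inhibits the enzyme that activates NEDD8, the small protein that switches on cullin-RING ubiquitin ligases. GC-2 is a single immortalised line, made with SV40 large T antigen and a temperature-sensitive p53, and every library comes from it, so the values describe that line.

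Homologous recombination repairs a broken chromosome by copying an intact sister. The MRE11-RAD50-NBN complex senses the break, CtIP (the product of Rbbp8), EXO1 and BLM trim its ends to single strands, and BRCA1, PALB2 and BRCA2 prepare them, with the strand exchange factors, to pair with the sister. The Fanconi core complex, with the enzyme UBE2T, attaches ubiquitin to FANCD2 and FANCI where strands are crosslinked, and the kinases ATM and ATR signal through CHK2 and CHK1 to hold the cell cycle. In the testis the same genes serve repair in dividing spermatogonia and the programmed breaks of meiosis.

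Values are FPKM, fragments scaled to transcript length and library size, so levels of different genes can be compared per length. Fold changes are differences of log2(FPKM + 1) with the standard error (SE) of a limma fit, and the verbs rose and fell mark a two-sided p under 0.05 after adjustment over the 12311 tested genes. The number of libraries, 3 per group, limits the precision, and sequencing depth is unknown because FPKM holds no counts. Library totals ran from 530452 to 633597 FPKM, the highest being DMSO hypoxia replicate 1, whose mean Spearman correlation with its group was 0.926 against 0.949 or more for every other library. Each comparison is therefore given with and without that library. Of the listed germ cell markers found in the table, Ddx4, Kit, Sohlh1, Nanos3, Sycp1 and Sycp3 stayed under 1 FPKM in all 12 libraries. Ddx4 reached 0.06 FPKM at most and Kit 0.04. Of 8 fibroblast and peritubular genes, Col1a1 lay between 365.5 and 739.3 FPKM, while Thy1, Myh11 and Dcn stayed under 1 FPKM throughout. Among Sertoli and Leydig cell genes, Sox9, Gata4 and Star were at 1 FPKM or more in all 12 libraries. Amh, Dhh, Hsd3b1 and Cyp17a1 of the same lists stayed under 1 FPKM throughout. The spermatogonia marker Uchl1, also known from neurons, lay between 10.8 and 22.4 FPKM and Gfra1 between 1.14 and 6.23 FPKM. Of the 5 spermatogonia markers found, 3 were thus under 1 FPKM throughout and 2 were not.

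All 39 genes passed the filter of 1 FPKM in 3 libraries, and 36 were at 1 FPKM or more in all 12. The exceptions were Rad51b in 9 libraries, Fancc in 11 and Fance in 10. Topbp1, which activates ATR, had the highest level, with a median of 53.3 FPKM, a lowest of 41.1 and a highest of 61.6. Next came Rbbp8 (median 27.9 FPKM), Ube2t (25.6), Brca1 (23.4) and Rad51ap1 (20.1), whose ranges over the 12 libraries overlapped. The lowest medians were 1.58 FPKM for Rad51b and 1.82 FPKM for Fancc. Summed over the 39 genes, the level was 395.3, 418.6 and 412.7 FPKM in MLN4924 hypoxia, 376.0, 378.9 and 370.1 in MLN4924 normoxia, 368.2, 397.8 and 427.4 in DMSO hypoxia and 362.0, 366.3 and 382.4 in DMSO normoxia. The MLN4924 hypoxia libraries all lay above those of both normoxia groups, and the DMSO hypoxia libraries overlapped every other group.

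**Figure D1:**
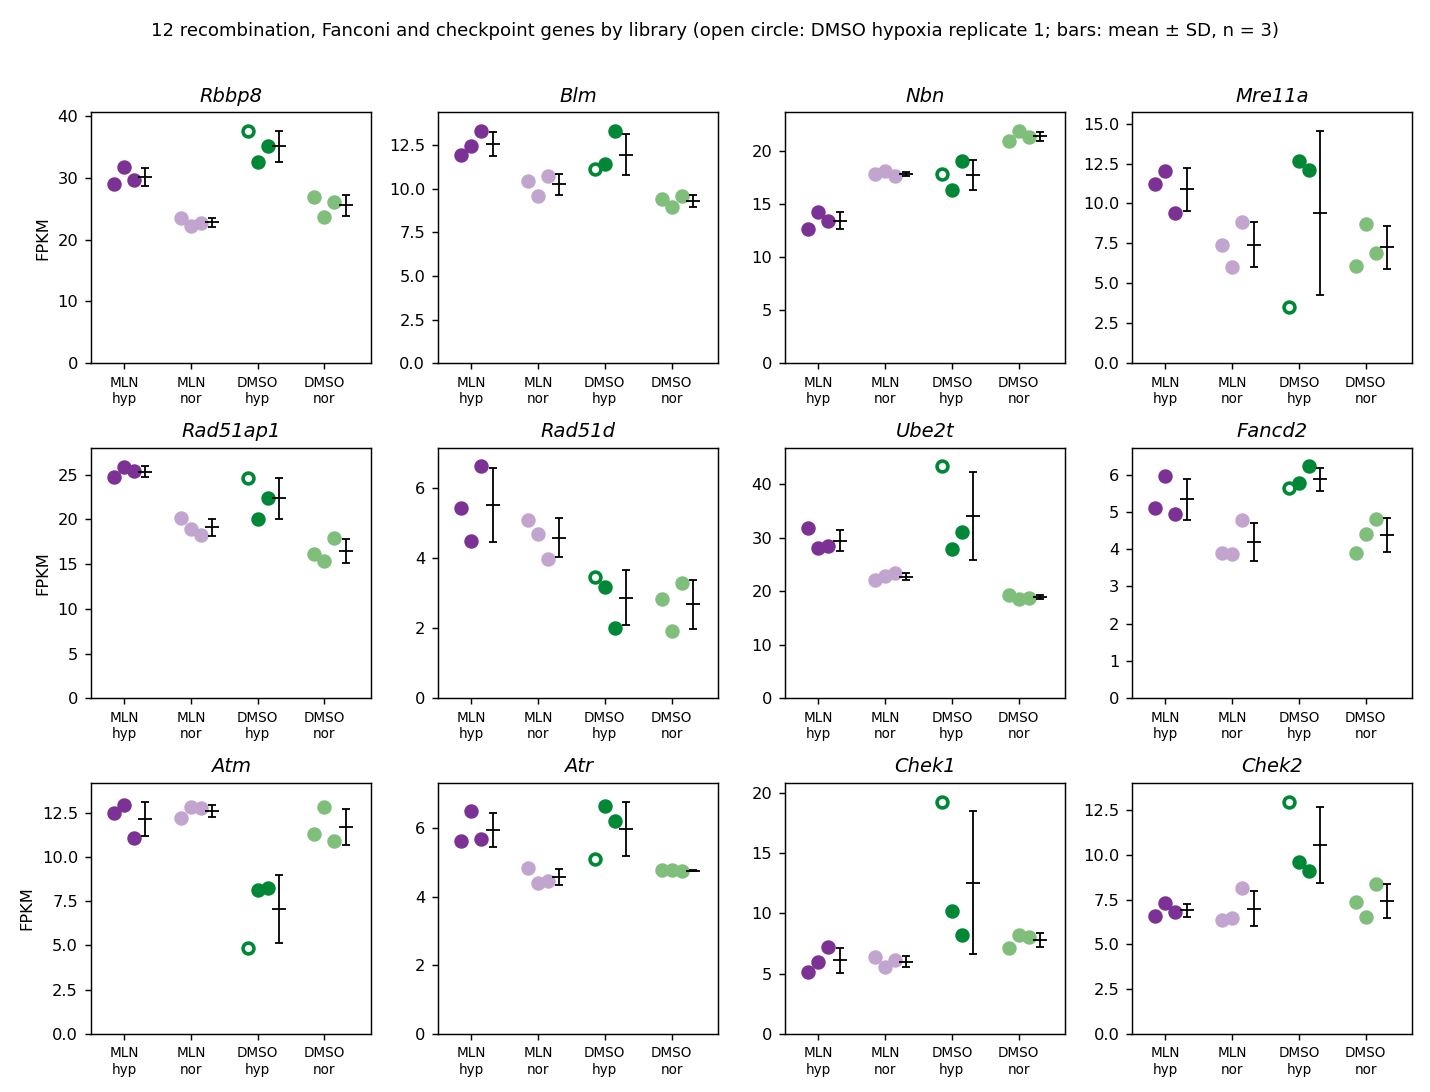
FPKM (vertical axes, from 0) of 12 of the genes in each library of MLN4924 hypoxia, MLN4924 normoxia, DMSO hypoxia and DMSO normoxia, with the mean and SD of 3 libraries beside the points. Nbn separates into 3 levels, Rad51d is higher in both MLN4924 groups, Atm is low in DMSO hypoxia alone, and DMSO hypoxia replicate 1 (open circle) lies far from its group for Mre11a, Ube2t, Chek1 and Chek2.

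The first comparison asked what 24 h at low oxygen did to these genes without the inhibitor. In DMSO, 7 of the 39 genes rose and 3 fell in hypoxia, while 33.2% of all tested genes were called, 13.8% rising and 19.4% falling. The members' share called was 25.6%, and its difference from that background, a few genes among 39, was not tested. The median log2 fold change was 0.01 over the members and -0.08 over all tested genes, and with each library rescaled to a total of 1000000 FPKM it was -0.03 and -0.13. Without DMSO hypoxia replicate 1, 9 genes rose and 3 fell, against 14.8% and 23.9% of all tested genes, and the median over the members was 0.14. With all libraries, the groups compared did not overlap for 45.2% of all tested genes, so such separation was common. In the comparisons below that share was 53.3% for hypoxia in MLN4924, 48.5% for MLN4924 in normoxia and 38.0% for MLN4924 in hypoxia. In bulk libraries a lower level can come from fewer cells in a given state or from less RNA per cell, which cannot be told apart.

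The genes that rose came from resection and unwinding (Rbbp8, Blm), strand exchange (Rad51ap1, Rad51b), the Fanconi pathway (Ube2t, Fancd2) and the checkpoint (Chek2). Rbbp8, which encodes the resection factor CtIP, was at 29.1, 31.8 and 29.7 FPKM in MLN4924 hypoxia and 23.6, 22.1 and 22.7 FPKM in MLN4924 normoxia. With DMSO, Rbbp8 was at 37.5, 32.5 and 35.2 FPKM in hypoxia and 26.8, 23.6 and 26.1 FPKM in normoxia. Both hypoxia groups lay wholly above both normoxia groups. The difference in DMSO was log2 fold change 0.44 ± 0.07 SE, adjusted p = 0.000929. Rad51ap1, which promotes strand pairing, was at 24.7, 25.9 and 25.4 FPKM in MLN4924 hypoxia and 20.1, 18.9 and 18.3 FPKM in MLN4924 normoxia. With DMSO, Rad51ap1 was at 24.6, 20.0 and 22.4 FPKM in hypoxia and 16.2, 15.4 and 17.9 FPKM in normoxia. Its hypoxia libraries also lay above the normoxia libraries of the same treatment, with a log2 fold change in DMSO of 0.42 ± 0.08 SE (adjusted p = 0.00339). Blm, the helicase mutated in Bloom syndrome, was at 11.9, 12.5 and 13.3 FPKM in MLN4924 hypoxia and 10.4, 9.59 and 10.8 FPKM in MLN4924 normoxia. With DMSO, Blm was at 11.1, 11.4 and 13.3 FPKM in hypoxia and 9.43, 8.94 and 9.58 FPKM in normoxia. Hypoxia libraries in DMSO were higher, with a log2 fold change of 0.33 ± 0.08 SE (adjusted p = 0.0117). Each of these 3 calls held in all 12 fits that left out a library.

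The subunits of the MRN complex gave different calls. Nbn, its signalling subunit that binds ATM, was at 12.6, 14.2 and 13.4 FPKM in MLN4924 hypoxia and 17.8, 18.1 and 17.6 FPKM in MLN4924 normoxia. With DMSO, Nbn was at 17.8, 16.3 and 19.1 FPKM in hypoxia and 21.0, 21.9 and 21.3 FPKM in normoxia. The MLN4924 hypoxia libraries were the lowest, the DMSO normoxia libraries the highest, and the other two groups lay between them and overlapped each other. Nbn fell in hypoxia in DMSO (log2 fold change -0.26 ± 0.07 SE, adjusted p = 0.0149). Of the 12 fits that left out a library, this call was lost only without DMSO normoxia replicate 2 (adjusted p = 0.0552). The call was also lost with only the libraries of the contrast. Mre11a, the nuclease subunit, was at 11.2, 12.1 and 9.38 FPKM in MLN4924 hypoxia and 7.38, 6.02 and 8.84 FPKM in MLN4924 normoxia. With DMSO, Mre11a was at 3.5, 12.6 and 12.1 FPKM in hypoxia and 6.09, 8.73 and 6.91 FPKM in normoxia. Rad50, the subunit that tethers DNA ends, was at 17.8, 19.7 and 19.3 FPKM in MLN4924 hypoxia and 16.2, 16.4 and 15.7 FPKM in MLN4924 normoxia. With DMSO, Rad50 was at 13.9, 17.7 and 18.7 FPKM in hypoxia and 16.4, 15.6 and 15.3 FPKM in normoxia. Neither passed the test in DMSO with all libraries (log2 fold change 0.19 ± 0.36 SE, adjusted p = 0.719 for Mre11a and log2 fold change 0.07 ± 0.10 SE, adjusted p = 0.585 for Rad50). Both had their lowest value in DMSO hypoxia replicate 1. With that library left out both rose (0.71, adjusted p = 0.00784 for Mre11a and 0.20, adjusted p = 0.0243 for Rad50) while Nbn fell (-0.26, adjusted p = 0.0147). Exo1, the resection exonuclease, was at 5.21, 6.62 and 8.74 FPKM in MLN4924 hypoxia and 10.2, 9.92 and 8.9 FPKM in MLN4924 normoxia. With DMSO, Exo1 was at 3.41, 5.73 and 6.86 FPKM in hypoxia and 8.96, 7.37 and 7.52 FPKM in normoxia. Its level was lower in all 3 DMSO hypoxia libraries than in DMSO normoxia, but the change missed the threshold (log2 fold change -0.54 ± 0.21 SE, adjusted p = 0.0758).

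Within the BRCA group no gene passed in this comparison. Brca1 was at 25.7, 27.2 and 28.0 FPKM in MLN4924 hypoxia and 22.8, 22.4 and 24.1 FPKM in MLN4924 normoxia. With DMSO, Brca1 was at 19.9, 24.3 and 27.5 FPKM in hypoxia and 20.7, 21.4 and 22.7 FPKM in normoxia. Its change in DMSO did not pass (log2 fold change 0.13 ± 0.10 SE, adjusted p = 0.342), and it rose without DMSO hypoxia replicate 1 (0.25, adjusted p = 0.0147). Brca2, which had its lowest DMSO hypoxia value in replicate 1, was at 2.67, 4.62 and 4.58 FPKM in MLN4924 hypoxia and 1.55, 2.25 and 2.38 FPKM in MLN4924 normoxia. With DMSO, Brca2 was at 2.08, 4.21 and 4.96 FPKM in hypoxia and 3.3, 2.39 and 3.35 FPKM in normoxia. In DMSO its change was a log2 fold change 0.20 ± 0.26 SE, adjusted p = 0.584, and 0.48, adjusted p = 0.101 without that library. Of the strand exchange factors, Rad51b was at 1.68, 2.28 and 1.37 FPKM in MLN4924 hypoxia and 1.28, 0.43 and 1.65 FPKM in MLN4924 normoxia. With DMSO, Rad51b was at 2.28, 2.02 and 2.35 FPKM in hypoxia and 0.66, 1.5 and 0.62 FPKM in normoxia. Rad51b rose in DMSO hypoxia (log2 fold change 0.77 ± 0.24 SE, adjusted p = 0.0340). It is one of the lowest genes of the set, and the call was lost in 5 of 12 fits, those that left out any DMSO hypoxia library or DMSO normoxia replicate 1 or 3 (adjusted p up to 0.110).

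In the Fanconi pathway the largest change was in Ube2t, the ubiquitin-conjugating enzyme of the core complex, at 31.7, 28.1 and 28.5 FPKM in MLN4924 hypoxia and 22.0, 22.8 and 23.3 FPKM in MLN4924 normoxia. With DMSO, Ube2t was at 43.3, 27.8 and 31.1 FPKM in hypoxia and 19.3, 18.5 and 18.8 FPKM in normoxia. Every hypoxia library exceeded every normoxia library, and in DMSO the difference was log2 fold change 0.80 ± 0.13 SE, adjusted p = 0.00108. Replicate 1 of DMSO hypoxia was by far the highest, and without it the difference was 0.61, adjusted p = 6.81e-05. Fancd2, the substrate that UBE2T and the core complex modify, was at 5.11, 5.95 and 4.94 FPKM in MLN4924 hypoxia and 3.91, 3.87 and 4.77 FPKM in MLN4924 normoxia. With DMSO, Fancd2 was at 5.63, 5.77 and 6.22 FPKM in hypoxia and 3.91, 4.42 and 4.81 FPKM in normoxia. Fancd2 rose in DMSO hypoxia (log2 fold change 0.36 ± 0.11 SE, adjusted p = 0.0262), without overlap between the DMSO groups. Leaving out replicate 3 of DMSO hypoxia, or replicate 1 or 2 of DMSO normoxia, ended the call (adjusted p up to 0.0960). Fanci, the partner of Fancd2, was at 9.83, 10.4 and 10.3 FPKM in MLN4924 hypoxia and 8.65, 8.72 and 8.71 FPKM in MLN4924 normoxia. With DMSO, Fanci was at 4.69, 7.95 and 8.99 FPKM in hypoxia and 7.03, 7.25 and 7.68 FPKM in normoxia. In DMSO its change was a log2 fold change -0.06 ± 0.17 SE, adjusted p = 0.811, and 0.19, adjusted p = 0.0564 without DMSO hypoxia replicate 1. Fancm, the translocase that brings the core complex to DNA, was at 2.24, 3.21 and 2.57 FPKM in MLN4924 hypoxia and 3.77, 3.09 and 2.98 FPKM in MLN4924 normoxia. With DMSO, Fancm was at 1.3, 2.73 and 2.16 FPKM in hypoxia and 3.16, 3.26 and 3.3 FPKM in normoxia. Fancm fell in DMSO hypoxia (log2 fold change -0.50 ± 0.17 SE, adjusted p = 0.0469). That call was lost in 10 of 12 fits with a library left out (adjusted p up to 0.108), among them the one without DMSO hypoxia replicate 1 (-0.30, adjusted p = 0.106).

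Among the checkpoint kinases, Atm fell and Chek2 rose. Atm, the kinase activated at double-strand breaks, was at 12.5, 12.9 and 11.1 FPKM in MLN4924 hypoxia and 12.2, 12.8 and 12.8 FPKM in MLN4924 normoxia. With DMSO, Atm was at 4.83, 8.13 and 8.23 FPKM in hypoxia and 11.3, 12.8 and 10.9 FPKM in normoxia. All 3 DMSO hypoxia libraries were below the other 9, and Atm fell in hypoxia in DMSO (log2 fold change -0.68 ± 0.16 SE, adjusted p = 0.00783). The fall was smaller and still past the threshold without replicate 1 (-0.46, adjusted p = 0.00169), and the call held in all 12 fits that left out a library. The call was lost with only the libraries of the contrast, where the spread is not shared with the other groups. Atr, the kinase of stalled forks, was at 5.64, 6.51 and 5.69 FPKM in MLN4924 hypoxia and 4.83, 4.41 and 4.46 FPKM in MLN4924 normoxia. With DMSO, Atr was at 5.09, 6.64 and 6.2 FPKM in hypoxia and 4.77, 4.77 and 4.74 FPKM in normoxia. Its DMSO hypoxia libraries lay above DMSO normoxia, whose 3 values were nearly equal, and the change just missed the threshold (log2 fold change 0.27 ± 0.10 SE, adjusted p = 0.0570), passing it without replicate 1 (0.36, adjusted p = 0.00581). Chek1, which encodes the ATR target CHK1, was at 5.16, 5.94 and 7.22 FPKM in MLN4924 hypoxia and 6.35, 5.51 and 6.11 FPKM in MLN4924 normoxia. With DMSO, Chek1 was at 19.3, 10.2 and 8.19 FPKM in hypoxia and 7.14, 8.24 and 8.08 FPKM in normoxia. The value of DMSO hypoxia replicate 1 was the highest by far, and the difference did not pass with it (log2 fold change 0.54 ± 0.24 SE, adjusted p = 0.108) or without it (0.21, adjusted p = 0.257). Chek2, the ATM target CHK2, was at 6.61, 7.33 and 6.82 FPKM in MLN4924 hypoxia and 6.38, 6.48 and 8.16 FPKM in MLN4924 normoxia. With DMSO, Chek2 was at 13.0, 9.62 and 9.1 FPKM in hypoxia and 7.37, 6.51 and 8.38 FPKM in normoxia. Chek2 rose in DMSO hypoxia (log2 fold change 0.45 ± 0.14 SE, adjusted p = 0.0314). Without replicate 1 it no longer passed (0.30, adjusted p = 0.0675), nor without DMSO normoxia replicate 1 or 2 (adjusted p up to 0.111). The 29 members not called in this comparison had log2 fold changes from -0.54 (Exo1) to 0.54 (Chek1).

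Deviations of DMSO hypoxia replicate 1 followed transcript length. Its difference from the mean of replicates 2 and 3, in log2(FPKM + 1), had a Spearman rho of -0.47 with the longest annotated transcript over the 39 genes and of -0.48 over 12003 tested genes, as a description across genes that share 1 library. The 15 members of 5000 nt or more had a median difference of -0.37, and 13 of them were below 0. The 24 shorter members had a median of -0.07, with 13 below 0. The largest negative differences were those of Fance (-2.06), Rad54b (-1.89) and Mre11a (-1.57), and the largest positive one was that of Chek1 (1.00). Fance, a core complex subunit, was listed at 0.04 FPKM in that library and at 0 in DMSO normoxia replicate 1, and its 4 groups overlapped. Rad54b, a DNA translocase of strand exchange, spread from 3.62 to 16.8 FPKM within DMSO hypoxia and from 5.44 to 18.2 FPKM within MLN4924 normoxia. What set this library apart was not tested.

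**Figure D2:**
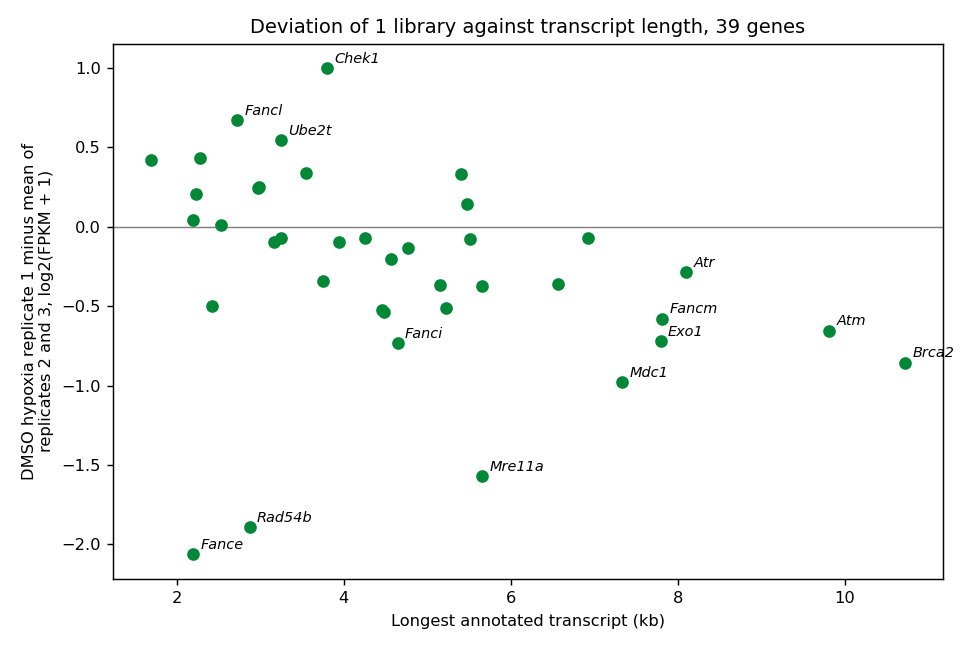
Difference of DMSO hypoxia replicate 1 from the mean of replicates 2 and 3, in log2(FPKM + 1) (vertical axis), against the longest annotated transcript in kilobases (horizontal axis), 1 point per gene for the 39 genes. The genes with the longest transcripts, such as Brca2, Atm, Atr and Fancm, lie below 0, while Chek1, Fancl and Ube2t lie above it.

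The promoters of 4 genes that rose in DMSO hypoxia are shown because, among the risers with a listed promoter in RefSeq, they had the largest fold changes. Each is the 250 bases before the start in build GRCm38.p6, which is not the build of the expression table, read 5′ to 3′ along the strand of the gene. The windows are chr1:134962315-134962564 on the plus strand for Ube2t, chr12:79297032-79297281 on the plus strand for Rad51b (the first of 2 listed starts), chr5:110839733-110839982 on the plus strand for Chek2 and chr6:126939588-126939837 on the minus strand for Rad51ap1. Capitals mark matches on either strand to CCAAT (the CCAAT box, bound by NF-Y), GCGGGAA and TTGGCGC (both written for E2F sites), TTTGAA (the core of the cell cycle homology element) and ACGTG (the core of the hypoxia response element).
Ube2t: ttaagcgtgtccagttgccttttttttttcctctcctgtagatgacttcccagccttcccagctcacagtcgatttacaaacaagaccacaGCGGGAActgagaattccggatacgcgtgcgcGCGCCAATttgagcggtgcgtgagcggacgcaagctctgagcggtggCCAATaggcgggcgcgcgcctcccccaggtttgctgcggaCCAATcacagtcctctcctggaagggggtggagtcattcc
Rad51b: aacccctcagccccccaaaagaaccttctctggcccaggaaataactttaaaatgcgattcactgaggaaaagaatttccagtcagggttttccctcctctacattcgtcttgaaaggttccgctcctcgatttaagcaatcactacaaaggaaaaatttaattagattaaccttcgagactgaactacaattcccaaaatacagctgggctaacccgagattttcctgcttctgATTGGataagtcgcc
Chek2: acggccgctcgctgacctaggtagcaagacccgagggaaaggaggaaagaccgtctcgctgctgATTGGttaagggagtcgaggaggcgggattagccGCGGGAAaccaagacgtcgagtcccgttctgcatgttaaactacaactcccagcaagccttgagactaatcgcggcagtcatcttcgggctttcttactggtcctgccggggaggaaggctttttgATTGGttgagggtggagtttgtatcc
Rad51ap1: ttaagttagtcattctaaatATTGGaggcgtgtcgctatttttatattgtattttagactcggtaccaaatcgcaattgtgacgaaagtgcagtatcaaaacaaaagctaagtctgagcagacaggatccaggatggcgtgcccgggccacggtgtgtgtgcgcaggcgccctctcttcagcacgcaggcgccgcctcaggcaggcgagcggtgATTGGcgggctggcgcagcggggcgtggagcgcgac
Ube2t held CCAAT 3 times, of which 1 overlaps the single TTGGCGC match read on the other strand, and GCGGGAA once. Chek2 held CCAAT 2 times and GCGGGAA once, Rad51ap1 held CCAAT 2 times and Rad51b once, and none of the 4 windows held TTTGAA or ACGTG. Of the 39 genes, 31 have a listed promoter. CCAAT was in 64.5% of these 31, against 34.5% of all 27025 listed promoters and 37.8% of the 9165 that belong to tested genes. GCGGGAA was in 32.3% of the members, 3.84% of all and 7.40% of those of tested genes, and TTGGCGC in 9.68%, 2.05% and 3.76%. ACGTG was in 25.8% of the members, 16.6% of all and 22.5% of those of tested genes, and TTTGAA in 6.45%, 16.3% and 10.5%. These are matches of letters and not measured binding.

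The second comparison set hypoxia against normoxia in cells given MLN4924. Here 4 of the 39 genes rose and 2 fell, while 28.2% of all tested genes were called, 11.7% rising and 16.5% falling. The median log2 fold change was 0.21 over the members and -0.05 over all tested genes. Rad51ap1 (log2 fold change 0.39 ± 0.08 SE, adjusted p = 0.00569), Rbbp8 (log2 fold change 0.39 ± 0.07 SE, adjusted p = 0.00242), Atr (log2 fold change 0.32 ± 0.10 SE, adjusted p = 0.0344) and Blm (log2 fold change 0.27 ± 0.08 SE, adjusted p = 0.0320) rose. Nbn (log2 fold change -0.39 ± 0.07 SE, adjusted p = 0.00198) and Fancb (log2 fold change -0.46 ± 0.11 SE, adjusted p = 0.00939) fell. Fancb, the core subunit encoded on the X chromosome, was at 7.84, 9.9 and 9.11 FPKM in MLN4924 hypoxia and 11.5, 12.3 and 14.1 FPKM in MLN4924 normoxia. With DMSO, Fancb was at 9.25, 7.76 and 7.49 FPKM in hypoxia and 10.5, 9.94 and 10.2 FPKM in normoxia. Its values were lower in hypoxia than in normoxia without overlap under both treatments. The calls of Rad51ap1, Rbbp8, Nbn and Fancb held in all 12 fits with a library left out. Blm lost its call in 5 of them, each without 1 of the MLN4924 libraries other than hypoxia replicate 1 (adjusted p up to 0.117), and Atr in 9, those without any MLN4924 or any DMSO normoxia library (adjusted p up to 0.126).

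The library that stood apart is not in this contrast but enters the shared spread. Without it 14 of the 39 genes rose and 3 fell, with the same differences and smaller errors. Of all tested genes 42.6% were then called, 17.9% rising and 24.7% falling. The added genes included Brca1 (log2 fold change 0.21 ± 0.10 SE, adjusted p = 0.137 with all libraries, adjusted p = 0.0156 without it), Brca2 (log2 fold change 0.68 ± 0.26 SE, adjusted p = 0.0736 with all libraries, adjusted p = 0.0164 without it), Ube2t (log2 fold change 0.36 ± 0.13 SE, adjusted p = 0.0627 with all libraries, adjusted p = 0.000859 without it) and Fancd2 (log2 fold change 0.29 ± 0.11 SE, adjusted p = 0.0650 with all libraries, adjusted p = 0.0446 without it). Mre11a, Rad50, Palb2, Fancl, Fanci and Rnf168 were the others that rose, and Exo1 fell (adjusted p = 0.0322 without it). Brca2 was higher in every MLN4924 hypoxia library than in any MLN4924 normoxia library. Atm (log2 fold change -0.05 ± 0.16 SE, adjusted p = 0.854) and Chek1 (log2 fold change 0.02 ± 0.24 SE, adjusted p = 0.972) differed by less than their SE. Among all 33 members not called with every library, the log2 fold change ran from -0.59 (Atrip) to 0.68 (Brca2).

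The third comparison set MLN4924 against DMSO in normoxia. In it 2 of the 39 genes rose and 2 fell, while 20.0% of all tested genes were called, 9.33% rising and 10.7% falling, and the median was 0.03 over the members and -0.03 over all tested genes. Rad51d, a subunit of a complex with XRCC2 that acts in strand exchange, was at 5.42, 4.49 and 6.61 FPKM in MLN4924 hypoxia and 5.08, 4.68 and 3.97 FPKM in MLN4924 normoxia. With DMSO, Rad51d was at 3.46, 3.16 and 2.0 FPKM in hypoxia and 2.82, 1.93 and 3.28 FPKM in normoxia. Both MLN4924 groups lay wholly above both DMSO groups, and Rad51d rose under MLN4924 in normoxia (log2 fold change 0.61 ± 0.19 SE, adjusted p = 0.0479). Bard1, the obligate partner of BRCA1 in its ubiquitin ligase, was at 6.67, 5.64 and 5.98 FPKM in MLN4924 hypoxia and 6.75, 7.01 and 6.24 FPKM in MLN4924 normoxia. With DMSO, Bard1 was at 3.84, 4.72 and 5.87 FPKM in hypoxia and 4.42, 5.12 and 4.56 FPKM in normoxia. Bard1 rose under MLN4924 in normoxia (log2 fold change 0.43 ± 0.13 SE, adjusted p = 0.0355), with no overlap between the normoxia groups. Fancc, a core complex subunit, was at 1.93, 1.73 and 1.24 FPKM in MLN4924 hypoxia and 1.31, 1.33 and 0.9 FPKM in MLN4924 normoxia. With DMSO, Fancc was at 1.99, 2.6 and 1.83 FPKM in hypoxia and 2.76, 3.16 and 1.81 FPKM in normoxia. Fancc fell under MLN4924 in normoxia (log2 fold change -0.70 ± 0.18 SE, adjusted p = 0.0184). Nbn also fell (log2 fold change -0.25 ± 0.07 SE, adjusted p = 0.0269).

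These 4 calls depended on single libraries. Fits with a library left out kept Rad51d in 3 of 12, Bard1 in 5, Nbn in 6 and Fancc in 9. The adjusted p reached 0.164 for Rad51d, 0.112 for Bard1, 0.0906 for Nbn and 0.0736 for Fancc, each without 1 normoxia library. Bard1 was also lost without MLN4924 hypoxia replicate 3, and Rad51d without any MLN4924 hypoxia library or DMSO hypoxia replicate 2. Without DMSO hypoxia replicate 1, which is not in this contrast, 6 genes rose and 2 fell. Of all tested genes 34.2% were then called, 16.0% rising and 18.2% falling. The 4 added were Rad51ap1 (0.21, adjusted p = 0.0363), Fanci (0.22, adjusted p = 0.0195), Ube2t (0.26, adjusted p = 0.00763) and Fancb (0.28, adjusted p = 0.0384). Brca1 (log2 fold change 0.09 ± 0.10 SE, adjusted p = 0.589), Brca2 (log2 fold change -0.39 ± 0.26 SE, adjusted p = 0.335), Fancd2 (log2 fold change -0.05 ± 0.11 SE, adjusted p = 0.784), Atm (log2 fold change 0.10 ± 0.16 SE, adjusted p = 0.718), Atr (log2 fold change -0.05 ± 0.10 SE, adjusted p = 0.789) and Chek1 (log2 fold change -0.34 ± 0.24 SE, adjusted p = 0.383) did not pass. Over the 35 members not called, the log2 fold change ran from -0.43 (Fancg) to 0.51 (Fance).

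The fourth comparison set MLN4924 against DMSO in hypoxia. In it 4 of the 39 genes rose and 3 fell, while 25.5% of all tested genes were called, 12.2% rising and 13.3% falling. The median log2 fold change was 0.11 over the members and -0.01 over all tested genes. Without DMSO hypoxia replicate 1 the counts were again 4 and 3, against 16.8% and 15.7% of all tested genes, and the median over the members was 0.04. With all libraries, 3 of the 7 genes called encode checkpoint kinases. Atm was at 12.5, 12.9 and 11.1 FPKM in MLN4924 hypoxia, against 4.83, 8.13 and 8.23 FPKM in DMSO hypoxia, and rose (log2 fold change 0.74 ± 0.16 SE, adjusted p = 0.00680, and 0.52, adjusted p = 0.00112 without replicate 1). The call held in all 12 fits with a library left out. With only the libraries of the contrast it was lost, as were the other member calls of this comparison. Chek1 was at 5.16, 5.94 and 7.22 FPKM in MLN4924 hypoxia, against 19.3, 10.2 and 8.19 FPKM in DMSO hypoxia, and fell (log2 fold change -0.86 ± 0.24 SE, adjusted p = 0.0244). Without replicate 1 the fall was smaller and still passed (-0.53, adjusted p = 0.0139), while the call was lost without MLN4924 hypoxia replicate 1 or 2 (adjusted p up to 0.0852). Chek2 fell too (log2 fold change -0.53 ± 0.14 SE, adjusted p = 0.0189, and -0.39, adjusted p = 0.0312 without DMSO hypoxia replicate 1), with no overlap between the groups. It lost its call without MLN4924 hypoxia replicate 1 or 3 (adjusted p up to 0.0605).

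Nbn fell under MLN4924 in hypoxia as well (log2 fold change -0.38 ± 0.07 SE, adjusted p = 0.00261). The call held in each of the 12 fits with a library left out, but not with only the libraries of the contrast. With all libraries Nbn was the only one of the 39 genes called in each of the 4 pairwise comparisons, against 5.52% of all tested genes. With DMSO hypoxia replicate 1 left out, Nbn and Rad51ap1 were called in all 4, against 10.9% of all tested genes. Rad51d rose (log2 fold change 0.76 ± 0.19 SE, adjusted p = 0.0165, and 0.87, adjusted p = 0.0101 without DMSO hypoxia replicate 1), and its call was lost without MLN4924 hypoxia replicate 3 (adjusted p = 0.0675). Palb2, which bridges BRCA1 and BRCA2, was at 4.91, 5.45 and 5.25 FPKM in MLN4924 hypoxia and 2.7, 3.9 and 4.05 FPKM in MLN4924 normoxia. With DMSO, Palb2 was at 2.54, 2.86 and 4.22 FPKM in hypoxia and 3.01, 2.71 and 2.74 FPKM in normoxia. Palb2 rose under MLN4924 in hypoxia (log2 fold change 0.58 ± 0.16 SE, adjusted p = 0.0228). It no longer passed without DMSO hypoxia replicate 1 (0.47, adjusted p = 0.0501) or 2, or MLN4924 hypoxia replicate 2 or 3 (adjusted p up to 0.0695). Rad54l, a translocase of strand exchange, was at 6.33, 7.36 and 9.75 FPKM in MLN4924 hypoxia and 6.76, 8.22 and 7.68 FPKM in MLN4924 normoxia. With DMSO, Rad54l was at 4.65, 5.42 and 5.56 FPKM in hypoxia and 6.98, 5.54 and 6.51 FPKM in normoxia. Rad54l rose under MLN4924 in hypoxia (log2 fold change 0.49 ± 0.14 SE, adjusted p = 0.0303), but not without DMSO hypoxia replicate 1 (0.42, adjusted p = 0.0620) or MLN4924 hypoxia replicate 2 or 3 (adjusted p up to 0.103). In their place Fanci (0.24, adjusted p = 0.0220) and Rad51ap1 (0.25, adjusted p = 0.0277) rose without DMSO hypoxia replicate 1. Brca1 (log2 fold change 0.18 ± 0.10 SE, adjusted p = 0.218), Brca2 (log2 fold change 0.09 ± 0.26 SE, adjusted p = 0.832), Fancd2 (log2 fold change -0.12 ± 0.11 SE, adjusted p = 0.436) and Atr (log2 fold change -0.002 ± 0.10 SE, adjusted p = 0.991) did not pass, and the 32 members not called ran from -0.31 (Fancg) to 0.60 (Fance).

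Over the 4 pairwise comparisons, 18 of the 39 genes (46.2%) were called at least once, against 53.6% of all tested genes, and 21 never were. The fit without DMSO hypoxia replicate 1 called 23 (59.0%) at least once, against 65.2% of all tested genes, and 16 never were. The genes not called with all libraries included Brip1, the helicase partner of BRCA1, at 6.24 to 10.3 FPKM over the 12 libraries, and 3 strand exchange factors, Rad51c (4.86 to 7.44 FPKM), Xrcc2 (6.43 to 7.63 FPKM) and Xrcc3 (3.66 to 5.98 FPKM). The core complex subunits Fanca (6.61 to 12.5 FPKM), Fancf (1.95 to 3.98 FPKM), Fancg (2.75 to 7.65 FPKM) and Fancl, its ubiquitin ligase (1.62 to 4.5 FPKM), were among them too. So were Topbp1, Atrip, the partner of ATR (1.27 to 5.59 FPKM), and all 3 genes of signalling on chromatin, the adaptor Mdc1 (3.05 to 8.37 FPKM) and the ubiquitin ligases Rnf8 (4.64 to 9.08 FPKM) and Rnf168 (7.82 to 12.8 FPKM).

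**Figure D3:**
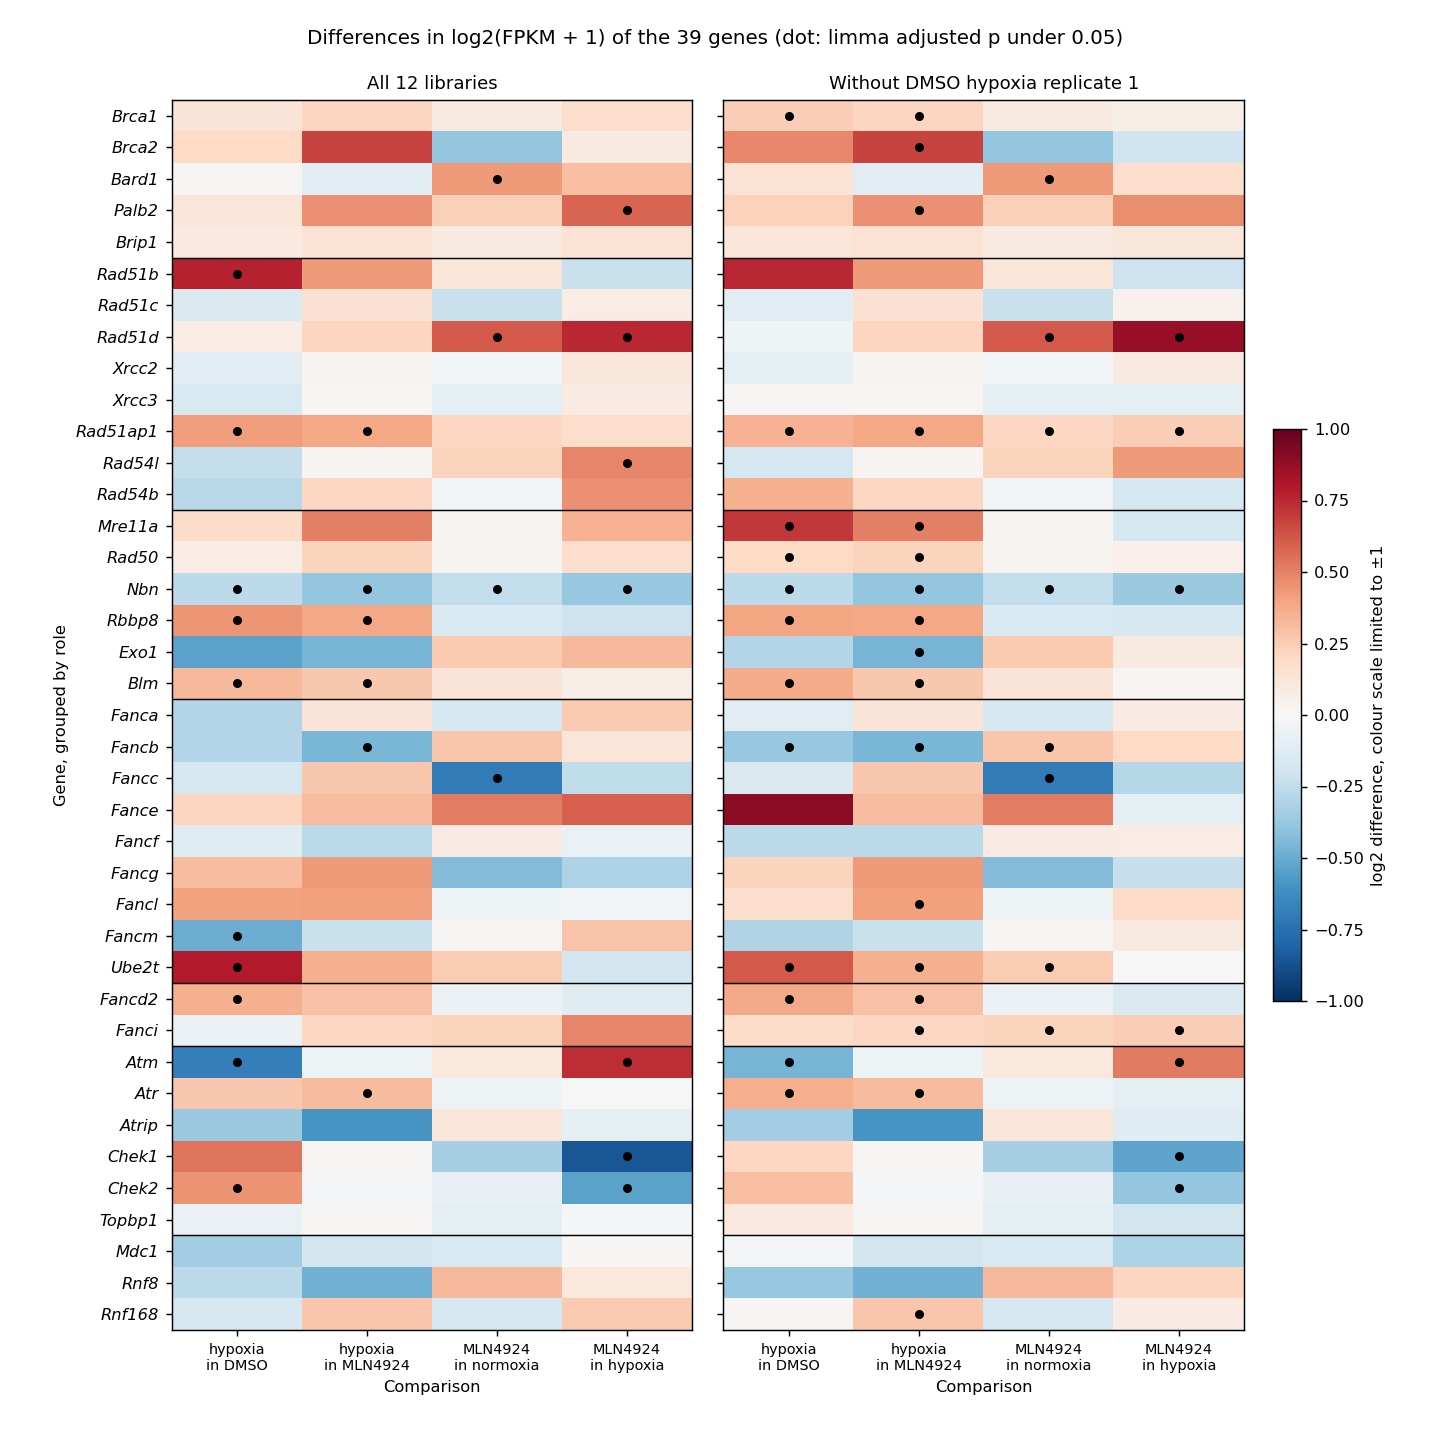
Differences in log2(FPKM + 1) of the 39 genes (rows, grouped by role) in the 4 pairwise comparisons (columns), with all 12 libraries on the left and without DMSO hypoxia replicate 1 on the right. Red is higher and blue lower in hypoxia or MLN4924, dots mark an adjusted p under 0.05, and Nbn is blue and dotted in every column of both panels.

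The interaction asked whether the hypoxia effect differed between MLN4924 and DMSO. With limma, 0 of the 39 genes passed, while 1.88% of all tested genes did (0.958% above 0 and 0.926% below), and 4 of the 39 had an unadjusted p under 0.05, against 14.6% of all tested genes. Those 4 were Atm (0.63 ± 0.22 SE, adjusted p = 0.219), Ube2t (-0.44 ± 0.18 SE, adjusted p = 0.305), Chek2 (-0.46 ± 0.20 SE, adjusted p = 0.318) and Rnf168 (0.44 ± 0.19 SE, adjusted p = 0.315). Leaving out DMSO hypoxia replicate 1 gave a count of 0 again, against 5.51% of all tested genes (3.3% above 0 and 2.21% below), and Atm came nearest (0.41, adjusted p = 0.0637). The fall of Atm in hypoxia passed in DMSO and not in MLN4924, and the test of that difference did not pass. For Nbn (-0.13 ± 0.10 SE, adjusted p = 0.574), Brca1 (0.09 ± 0.14 SE, adjusted p = 0.803), Brca2 (0.48 ± 0.36 SE, adjusted p = 0.579), Fancd2 (-0.07 ± 0.15 SE, adjusted p = 0.862), Atr (0.05 ± 0.14 SE, adjusted p = 0.893) and Chek1 (-0.52 ± 0.34 SE, adjusted p = 0.528) the difference did not pass either.

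The hypoxia effects in MLN4924 and in DMSO share no library and can be set side by side. They had the same sign for 27 of the 39 genes, 69.2%, against 74.5% of all tested genes, with a Pearson r of 0.65 and a Spearman rho of 0.70 across the genes. With DMSO hypoxia replicate 1 left out, the same sign was seen for 31 genes, 79.5%, against 77.2%, with an r of 0.77 and a rho of 0.79. The MLN4924 effects in hypoxia and in normoxia had the same sign for 27 genes, 69.2%, against 69.6% of all tested genes, with an r of 0.60 and a rho of 0.57. Without that library they had it for 30 genes, 76.9%, against 73.3%, with an r and a rho of 0.66. These are descriptions across genes, which are not independent replicates, and the shares were close to those of all tested genes.

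**Figure D4:**
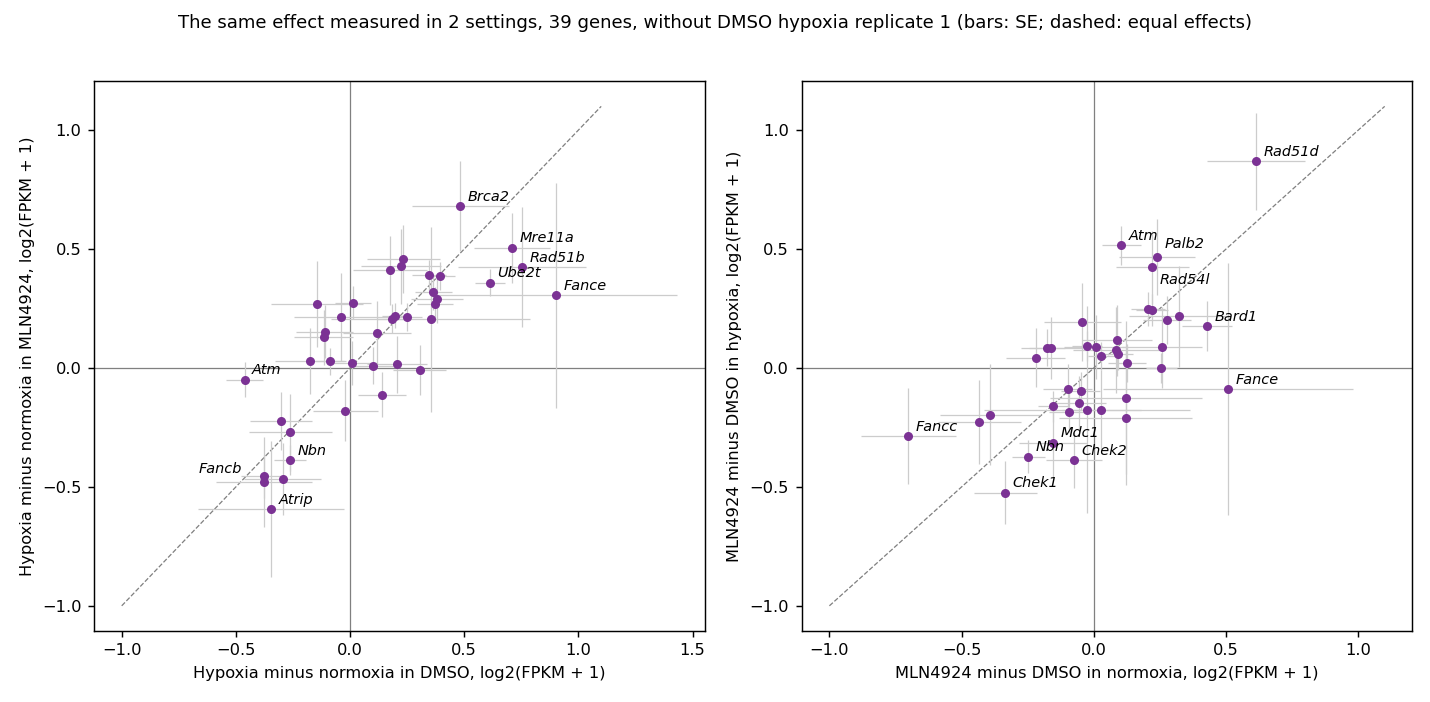
Left, hypoxia minus normoxia in MLN4924 (vertical) against the same in DMSO (horizontal); right, MLN4924 minus DMSO in hypoxia (vertical) against the same in normoxia (horizontal), in log2(FPKM + 1) with SE bars for the 39 genes, without DMSO hypoxia replicate 1. Atm lies off the dashed line of equal effects in both panels, Rad51d is at the upper right and Chek1 at the lower left of the right panel, and Nbn lies below 0 on all 4 axes.

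Other genes of these pathways were counted from lists. Of all tested genes, 33.2% were called in hypoxia in DMSO, 28.2% in hypoxia in MLN4924, 20.0% under MLN4924 in normoxia and 25.5% under MLN4924 in hypoxia. Without DMSO hypoxia replicate 1 these shares were 38.7%, 42.6%, 34.2% and 32.4%. Of 26 other recombination and crosslink genes tested, 2 rose and 4 fell in hypoxia in DMSO, 3 and 5 in hypoxia in MLN4924, 3 and 1 under MLN4924 in normoxia, and 2 and 2 under MLN4924 in hypoxia. These counts without DMSO hypoxia replicate 1 were 4 and 2, 4 and 6, 4 and 1, and 2 and 2. Rpa1, the large subunit of the protein that coats single strands, averaged 108.5 FPKM in MLN4924 hypoxia, 131.8 in MLN4924 normoxia, 82.6 in DMSO hypoxia and 116.6 in DMSO normoxia. It fell in hypoxia in DMSO (-0.50, adjusted p = 7.82e-05) and in MLN4924 (-0.28, adjusted p = 0.00336), and rose under MLN4924 in normoxia (0.18, adjusted p = 0.0426) and in hypoxia (0.39, adjusted p = 0.000531).

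Of 15 other checkpoint genes, 1 rose and 4 fell in hypoxia in DMSO, 1 and 4 in hypoxia in MLN4924, 1 and 1 under MLN4924 in normoxia, and 2 and 4 under MLN4924 in hypoxia. Leaving out DMSO hypoxia replicate 1 gave 1 and 4, 2 and 7, 1 and 3, and 2 and 5. For 2 of them the interaction passed with all libraries, and for 3 without that one (Cdc25c in addition). These were 13.3% and 20.0% of the list, against 1.88% and 5.51% of all tested genes. Rad9a, part of the clamp that activates ATR, averaged 26.4 FPKM in MLN4924 hypoxia, 30.1 in MLN4924 normoxia, 17.2 in DMSO hypoxia and 28.0 in DMSO normoxia (interaction 0.49, adjusted p = 0.0252). H2ax, the histone phosphorylated beside breaks, averaged 48.7 FPKM in MLN4924 hypoxia, 67.8 in MLN4924 normoxia, 77.0 in DMSO hypoxia and 72.4 in DMSO normoxia (interaction -0.55, adjusted p = 0.0457). Of 15 end joining genes, 1 rose and 2 fell in hypoxia in DMSO, 2 and 2 in hypoxia in MLN4924, 1 and 0 under MLN4924 in normoxia, and 2 and 1 under MLN4924 in hypoxia, or 1 and 2, 4 and 3, 2 and 1, and 3 and 1 without that library. Of 15 genes listed for meiotic recombination 9 were found and 3 passed the filter, of which 1 rose in hypoxia in DMSO (Mnd1) and none was called in the other comparisons. When that library was left out, Mnd1 rose in hypoxia in DMSO and in MLN4924, while Psmc3ip fell in hypoxia in DMSO and rose under MLN4924 in hypoxia.

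Many of the 39 genes are known to follow the cell cycle, and cell cycle genes moved in the same comparisons. Of 20 G2 and M genes, 13 rose and 0 fell in hypoxia in DMSO, 0 and 8 in hypoxia in MLN4924, 9 and 0 under MLN4924 in normoxia, and 0 and 13 under MLN4924 in hypoxia, and in the interaction 11 fell. Of 23 S phase genes, 4 rose and 2 fell in hypoxia in DMSO, 11 and 0 in hypoxia in MLN4924, 4 and 4 under MLN4924 in normoxia, and 9 and 0 under MLN4924 in hypoxia. In this order, 65.0%, 40.0%, 45.0% and 65.0% of the G2 and M genes were called, and 26.1%, 47.8%, 34.8% and 39.1% of the S phase genes. The shares of all tested genes were 33.2%, 28.2%, 20.0% and 25.5%. In the interaction 55.0% of the G2 and M genes were called, against 1.88% of all tested genes. Of the S phase genes, 2 rose in it (8.70%) and 0 fell. Without DMSO hypoxia replicate 1 the G2 and M counts were 16 and 0, 1 and 11, 14 and 0, and 0 and 17 in the same order. For the S phase genes they were 5 and 2, 15 and 1, 6 and 6, and 14 and 0. These were 80.0%, 60.0%, 70.0% and 85.0% of the G2 and M genes and 30.4%, 69.6%, 52.2% and 60.9% of the S phase genes. Of all tested genes, 38.7%, 42.6%, 34.2% and 32.4% were then called. In the interaction 17 G2 and M genes then fell (85.0%) and 5 S phase genes rose (21.7%), against 5.51% of all tested genes called. The part of the cell cycle in the levels of the 39 genes was not tested.

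Some of the genes share exon sequence with a neighbour, and whether fragments were counted by strand is not stated, so their values may hold fragments of both. Lengths given are the longest overlap between single exons in GENCODE vM21, so the total shared can be larger. On the same strand, Rad54b overlaps Fsbp (2068 nt), Atrip overlaps Trex1 (996 nt) and Rnf8 overlaps Gm28043 (744 nt). On the opposite strand, such overlaps included those of Fancc with Gm16133 (1355 nt), Rad54l with Lrrc41 (721 nt) and Atr with 1700065D16Rik (668 nt). Others were those of Fancm with Gm47870 (575 nt), Fancl with Vrk2 (462 nt), Fanca with Zfp276 (441 nt) and Palb2 with Gm16326 (414 nt). Shorter ones included Fanci with Polg (398 nt), Rbbp8 with AC090479.2 (376 nt), Fancd2 with Fancd2os (256 nt) and Mre11a with Ankrd49 (106 nt). Nbn, Atm, Chek1, Chek2, Rad51d, Rad51ap1, Ube2t, Blm and Bard1 have no such overlap there.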

How the data were processed

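RNA was extracted with RNAiso Plus, purified with RNeasy and sequenced on a NovaSeq instrument with 150 nt paired reads after NEBNext Ultra RNA library preparation, per the labels' protocols. Tools named in the submitters' processing notes are fastp, STAR and RSEM 1.3.3, with build mm39; the annotation, strandedness and filters are not given in the sources used here. The authors deposited FPKM, rounded to 2 decimals, in 1 table with 1 column per library. FPKM depends on each library's total, so a change in abundant genes shifts the others. Nothing in the labels says that the 3 libraries of a group came from separate cultures beyond the series' word biological replicates, so p-values measure the spread between these libraries.

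Genes with at least 1 FPKM in 3 of 12 libraries (12311 of 24770) were fitted as log2(FPKM + 1) in R 4.3.3 by limma 3.58.1, as 4 group means that share 1 estimate of the spread, with an intensity trend. The 5 contrasts were two-sided, with Benjamini-Hochberg adjustment over all tested genes and 0.05 as the threshold. An exact permutation test of 3 against 3 libraries cannot go below p = 0.1, so it was not used. The pseudocount of 1 understates changes of low genes. The procedure was tested on simulated data with independent normal noise and, for each gene, the same spread in every library. No simulated library stood apart as DMSO hypoxia replicate 1 does, so that test does not cover this feature of the data. The cell type label counts upward from sample to sample while the titles name 1 line, and all were taken as GC-2.

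The members, the other gene lists and the tests were chosen with earlier results of these data known. Named in every comparison were Brca1, Brca2, Fancd2, Chek1, Atm and Atr, with up to 6 members that rose and up to 6 that fell with the largest change past the threshold. Other members and the genes outside the list were named after their values were seen. Another gene of those lists is counted with them, and its own values are not reported here. The alternatives were a pseudocount of 0.1, no filter, a filter on the mean, rescaling to a total of 1000000 FPKM, median-of-ratios scaling, array weights, each contrast's libraries alone, a replicate block and leaving out each of the 12 libraries. Transcript lengths and exon overlaps came from GENCODE vM21 by symbol, with a length for all 39 genes and for 97.5% of tested genes. Promoters came from RefSeq (GRCm38.p6).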

Additional observations from a re-analysis of the deposited data

How the results depend on the processing

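The counts of members that rose or fell were within 1.5 times the reported ones except as follows. With all other settings kept, those that rose in hypoxia in DMSO (7) were 4 with no filter on low values and 4 with only the libraries of the contrast, which left 0 of the 3 that fell. Those that rose in hypoxia in MLN4924 (4) were 7 with median-of-ratios scaling, 15 with array weights and 12 with only the libraries of the contrast. Under MLN4924 in normoxia, those that rose (2) were 1 with a pseudocount of 0.1, 0 with no filter, 1 after rescaling to a total of 1000000 FPKM, 6 with array weights and 5 with only the libraries of the contrast, and those that fell (2) were 4 with array weights. Under MLN4924 in hypoxia, those that rose (4) were 2 with no filter and 0 with only the libraries of the contrast, which also left 0 of the 3 that fell. Counts over all tested genes also depended on the setting. With median-of-ratios scaling, 1751 of all tested genes rose in hypoxia in MLN4924, against 1439 as reported. With array weights, 843 passed in the interaction, against 232. Pairwise counts of all tested genes with array weights, no filter or only the libraries of the contrast are not given here. The shifts above therefore cannot be read as particular to the members, and their causes were not tested.

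Leaving out each library in turn gave 4 to 9 rising and 1 to 3 falling in hypoxia in DMSO, 2 to 14 and 2 to 3 in hypoxia in MLN4924, 0 to 6 and 0 to 2 under MLN4924 in normoxia, 1 to 8 and 1 to 4 under MLN4924 in hypoxia, and 0 in the interaction. The highest counts in hypoxia in MLN4924 (14) and under MLN4924 in normoxia (6) came without DMSO hypoxia replicate 1. The shares of all tested genes called were then higher too, at 42.6% against 28.2% and 34.2% against 20.0%. For the fits without another library such shares are not given here. Under MLN4924 in hypoxia, 8 rose without DMSO hypoxia replicate 3, 2 without MLN4924 hypoxia replicate 2 and 1 without MLN4924 hypoxia replicate 3, and 1 fell without MLN4924 hypoxia replicate 1. In hypoxia in DMSO, 4 rose without DMSO normoxia replicate 1 and 1 fell without DMSO normoxia replicate 2. Over the 195 pairs of a member and a comparison and all alternatives, 3513 of 3861 values kept direction and side of the threshold. Of the rest, 114 lost the call, 86 gained one, and 148 changed sign without a call. Only pairs called as reported could lose a call, so 3861 is not the base of those 114. Such pairs numbered 10 in hypoxia in DMSO and 6 in hypoxia in MLN4924. Under MLN4924 they numbered 4 in normoxia and 7 in hypoxia, and in the interaction 0. The interaction had 0 adjusted calls among the members in all settings, with a smallest adjusted p of 0.0637.

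The replicate numbers did not pair the libraries: deviations of same-numbered libraries correlated by -0.0697 to 0.0993, and 4 of 12 libraries correlated best with their own number. With a replicate block, 0 members rose and 1 fell under MLN4924 in normoxia. With median-of-ratios scaling the share of calls that rose was 50.9% over all tested genes in hypoxia in DMSO, against 41.5% as reported, and 50.9% in hypoxia in MLN4924, against 41.4%, and the members gave 8 rising and 2 falling and 7 rising and 2 falling. Depth is unknown, so low genes such as Rad51b, Fancc and Fance carry an error that cannot be stated.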
